A study of Mus musculus with 4 samples.

Results

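Collagens, laminins and the genes that remodel the extracellular matrix were measured in stomachs of male mice from 2 strains. The members were taken by gene symbol: collagen chains, laminin chains, matrix metalloproteinases (Mmp), their tissue inhibitors (Timp), Adamts and Adamts-like proteins, lysyl oxidases, fibulins, fibronectin (Fn1), decorin (Dcn), biglycan (Bgn), lumican (Lum), Sparc and Thbs1. On the microarray, 91 probes with a single annotated symbol matched. Of these, 45 probes of 44 genes had a value on all 4 arrays and were compared, out of 13475 probes with a value on all arrays and 7682 named genes among them. A further 19 matching probes had values on some arrays and 27 on none. Thbs1 itself was not analysed here. Loxhd1, which is not a lysyl oxidase, matched by the start of its symbol.

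The congenic strain, B6.CAST-17, was homozygous and, by its name, carries CAST-derived chromosome 17 sequence on the background of the control strain. The study, by its title, concerns Glp1r expression and gastric emptying, and the matrix comparison uses the same 4 arrays. The controls were wild-type C57BL/6J mice. How far the CAST segment extends, and how old the animals were, is not stated in the labels. All mice were fed chow and lost access to food 4 h before euthanasia. RNA from 3 males was combined into each pool, and 2 pools per strain were hybridised to 1 array each, so every value below describes a pool and every strain difference rests on 2 pools against 2. The spread between pools is not the spread between single animals. The deposited values are treated as log2 signals, a scale inferred from their range, and all differences are B6.CAST-17 minus C57BL/6J on that scale, ± SE from the model. Signals of different probes cannot be ranked against each other on such an array, so levels of single genes are compared only between arrays of the same probe. List sums, the choice of the brightest probe of a gene and the leaving out of dim probes do use levels across probes.

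The extracellular matrix of the stomach wall has an interstitial part, built mainly by fibroblasts and smooth muscle from fibrillar collagens, and basement membranes, thin sheets of type IV collagen and laminin under epithelia and around muscle cells and vessels. Lysyl oxidases cross-link collagen and elastin, metalloproteinases cut matrix proteins, and Timp proteins inhibit the metalloproteinases. Small leucine-rich proteoglycans such as decorin, biglycan and lumican bind collagen fibrils and affect their assembly. In whole-organ RNA, fewer cells of a type and less RNA per cell cannot be told apart.

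No matrix gene passed the test between the strains. With limma and Benjamini-Hochberg adjustment over all 13475 probes, 0 of 45 member probes had an adjusted p under 0.05, where 0.475% of all probes did (0.289% higher and 0.186% lower in B6.CAST-17). The smallest adjusted p among them was 0.168. An unadjusted p under 0.05 was reached by 6 of 45, or 13.3%, against 15.8% of all probes. Of these, 4 were higher in B6.CAST-17, where the share over all probes was 7.12%, and 2 were lower, where it was 8.66%. In 25 of 45 probes (55.6%) the pools of the strains did not overlap, 10 with B6.CAST-17 higher and 15 with it lower. Over all probes the pools were apart for 49.4%, 23.4% with B6.CAST-17 higher and 26.1% with it lower. The median difference was 0.013 over the members and -0.0020 over all probes. The members' shares therefore lay near those of the array as a whole.

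The sizes of the differences were set beside those of all probes too. None of the 45 reached 1 log2, which 1.14% of all probes did, and 1 of 45, Col11a2, reached 0.5 log2, against 7.81% of all probes. The differences ran from -0.49 for Adamtsl4 to 0.72 for Col11a2. The median absolute difference was 0.17 over the members and 0.15 over all probes. For 42 of the 45 the 95% interval of the difference lay wholly within 1 log2 on either side of 0, and for 23 it lay within 0.5 log2. Over all 13475 probes these counts were 11901 and 6777. The intervals of Adamtsl4 (down to -1.11), Col1a1 (up to 1.13) and Col11a2 (up to 1.21) reached beyond 1 log2. A result that missed the threshold here does not show that the strains were alike.

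**Figure D1:**
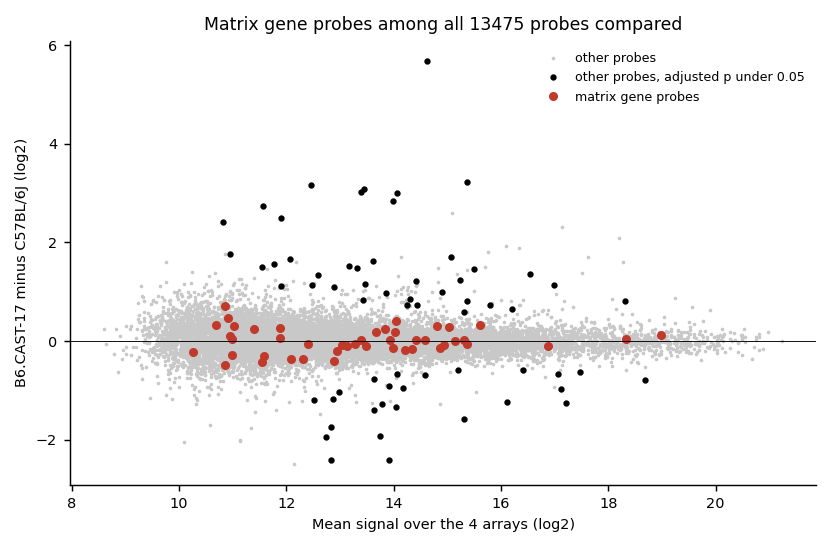
Each point is a probe, with its mean signal over the 4 arrays (log2) on the horizontal axis and the difference B6.CAST-17 minus C57BL/6J (log2) on the vertical axis. Grey points are the other probes compared, black points those with an adjusted p under 0.05 in limma, and red points the 45 matrix probes, which lie between -0.49 and 0.72 and include none that passed.

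The 6 genes with an unadjusted p under 0.05 belonged to different parts of the matrix. They were picked by that p from these arrays, so the separation of their pools is no further support. Col14a1 encodes collagen XIV, which associates with the surface of collagen fibrils. Its signal was 14.22 and 14.29 in the B6.CAST-17 pools and 13.88 and 13.81 in the C57BL/6J pools. Both B6.CAST-17 pools were thus above both controls, by 0.40 ± 0.085 or 1.32-fold (limma adjusted p = 0.168). Lamb3 encodes a beta chain of the laminin that anchors stratified epithelia. It read 15.74 and 15.81 in B6.CAST-17 and 15.47 and 15.41 in C57BL/6J, again without overlap, a difference of 0.33 ± 0.073 or 1.26-fold (limma adjusted p = 0.173). Sparc, a collagen-binding matricellular protein, read 14.96 in both B6.CAST-17 pools and 14.74 and 14.59 in C57BL/6J. The difference of 0.30 ± 0.085, or 1.23-fold, had a limma adjusted p of 0.222.

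Bgn and Col8a1 pointed the other way. Bgn, the small proteoglycan biglycan, read 12.64 and 12.72 in B6.CAST-17 and 12.94 and 13.23 in C57BL/6J. Its difference was -0.40 ± 0.13 (limma adjusted p = 0.252), with both controls above both B6.CAST-17 pools. It was -0.26 without C57BL/6J pool 2 and -0.55 without C57BL/6J pool 1. Col8a1, a chain of the short network-forming collagen VIII of vessels, read 11.39 and 11.28 in B6.CAST-17 and 11.81 and 11.71 in C57BL/6J. The difference of -0.42 ± 0.15 had a limma adjusted p of 0.278, and the pools again did not overlap. None of these 6 genes passed with any pool left out: their limma adjusted p then lay between 0.223 and 0.582.

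**Figure D2:**
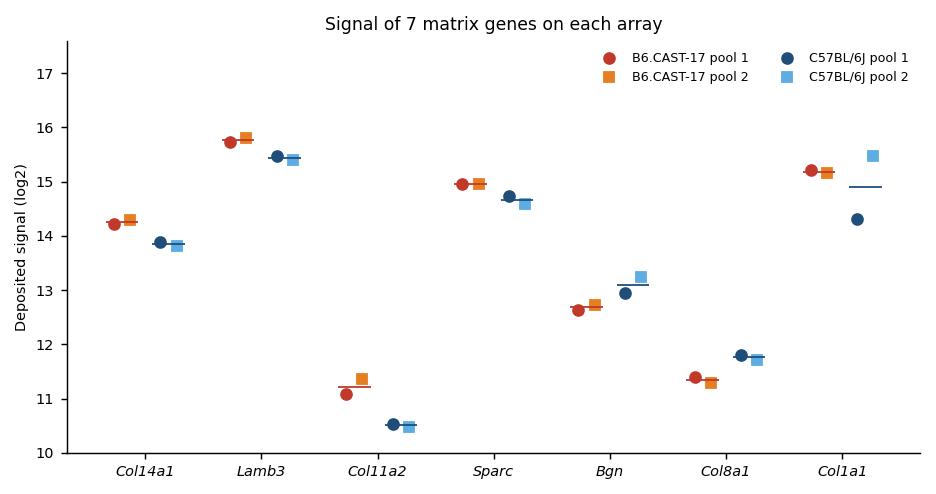
Deposited signal (log2, vertical axis) on each array for the 6 matrix genes with an unadjusted p under 0.05 and for Col1a1. Circles and squares are pools 1 and 2, short lines are strain means, and levels should be read within a gene only. For the first 6 genes, picked by that p, both pools of one strain lie on one side of the other strain. For Col1a1 the C57BL/6J pools read 14.32 and 15.48 and lie on either side of both B6.CAST-17 pools.

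Promoter sequence is shown for the members of this group with a single RefSeq start that no other annotated gene overlaps, Sparc, Bgn and Col8a1. Each line is the 250 bases before the annotated start, 5′ to 3′ on the gene's strand, from the RefSeq table of build GRCm38.p6. Sparc lies at chr11:55420081-55420330 on the minus strand, Bgn at chrX:73483351-73483600 on the plus strand and Col8a1 at chr16:57754738-57754987 on the minus strand. Capitals mark matches to a GC box, GGGCGG or its complement CCGCCC.
Sparc: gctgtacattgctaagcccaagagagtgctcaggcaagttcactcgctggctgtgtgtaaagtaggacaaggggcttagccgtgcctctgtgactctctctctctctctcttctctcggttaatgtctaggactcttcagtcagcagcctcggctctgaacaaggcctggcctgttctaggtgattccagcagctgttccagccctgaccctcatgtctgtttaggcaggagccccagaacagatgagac
Bgn: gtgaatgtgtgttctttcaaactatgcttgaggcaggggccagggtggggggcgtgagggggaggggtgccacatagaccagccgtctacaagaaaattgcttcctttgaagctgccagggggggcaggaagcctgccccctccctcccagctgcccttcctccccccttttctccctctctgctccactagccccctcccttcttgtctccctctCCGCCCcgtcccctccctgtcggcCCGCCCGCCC
Col8a1: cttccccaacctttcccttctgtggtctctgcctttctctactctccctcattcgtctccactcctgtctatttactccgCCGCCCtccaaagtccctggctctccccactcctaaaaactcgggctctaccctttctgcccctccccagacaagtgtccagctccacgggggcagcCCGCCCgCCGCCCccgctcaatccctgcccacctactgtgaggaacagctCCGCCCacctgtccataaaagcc
The Sparc window held 0 GC boxes, the Bgn window 3, of which 2 overlap, and the Col8a1 window 4. No TATA box (TATAAA or its complement) and no CCAAT box (CCAAT or its complement) was found in any of the 3. The windows were 54.0%, 64.4% and 60.8% G and C, against a mean of 53.2% over all 32851 windows in the table. Of the 33 member genes with a window in that table, 22 (66.7%) held a GC box, 13 (39.4%) a CCAAT box and 4 (12.1%) a TATA box, where 32.7%, 33.8% and 12.4% of all windows did. Some genes have several windows, and a gene was counted once if any of its windows held the letters, which raises the member shares somewhat. Col11a2, which had the largest difference of the members but did not pass, was among the member genes with a GC box and among those with a TATA box. These are letter matches only, and any bearing of them on the strain differences was not tested.

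Fibrillar collagens form the load-bearing cables of the tissue. Of 7 chains measured, 0 passed, 5 were above and 2 below 0, and the median difference was 0.047. Col3a1, the chain of collagen III, read 18.26 and 18.46 in B6.CAST-17 and 18.26 and 18.37 in C57BL/6J, a difference of 0.047 ± 0.095 with an interval from -0.19 to 0.28. Its pools overlapped. Col1a2, the second chain of collagen I, read 16.80 and 16.84 in B6.CAST-17 and 17.05 and 16.80 in C57BL/6J, with a difference of -0.11 ± 0.099. Col5a2, a chain of the collagen V that nucleates fibrils, differed by -0.15 ± 0.097 with every B6.CAST-17 value below every control value, and Col5a1, its partner, by 0.029 ± 0.12. Col5a3 read 11.14 in B6.CAST-17 pool 2 against 10.50 to 10.57 on the other arrays, and its difference of 0.32 ± 0.26 was 0.039 without that pool.

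Col1a1, the main chain of collagen I, could not be placed. It read 15.21 and 15.16 in B6.CAST-17, and 14.32 in C57BL/6J pool 1 against 15.48 in C57BL/6J pool 2. The control pools differed by 1.16 log2, the widest gap between pools of one strain among the 45 members. The difference over all arrays was 0.29 ± 0.34 (limma adjusted p = 0.710). It was -0.29 ± 0.097 without C57BL/6J pool 1 (limma adjusted p = 0.269) and 0.87 ± 0.10 without C57BL/6J pool 2 (limma adjusted p = 0.0184), so the sign and the call depended on which control pool was kept. Col1a2, which encodes the other chain of the same collagen, read 17.05 in C57BL/6J pool 1, the highest of its 4 values. Among the members, C57BL/6J pool 1 stood more than 0.5 log2 from 3 otherwise close arrays for Col1a1, Col17a1 and Adamtsl4, B6.CAST-17 pool 2 did so for Col5a3, and the remaining pools for 0. That is 6.67% of the members for C57BL/6J pool 1 and 2.22% for B6.CAST-17 pool 2, where each of these pools stood apart for 1.78% of all probes.

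Col11a2, a minor fibrillar chain best known from cartilage, had the largest difference of the members and was the only one of the 45 on chromosome 17. It read 11.08 and 11.36 in B6.CAST-17 and 10.54 and 10.47 in C57BL/6J. The pools did not overlap, and the difference was 0.72 ± 0.20 or 1.65-fold (limma adjusted p = 0.215), between 0.58 and 0.86 when single pools were left out. On this chromosome 132 of 379 measured genes (34.8%) had an unadjusted p under 0.05, against 15.8% of all probes. In gene order Col11a2 was number 177 of the 379, next to Rxrb, a nuclear receptor, and Brd2, a chromatin reader. Rxrb differed by -0.46 ± 0.11 (limma adjusted p = 0.183) and Brd2 by -0.10 ± 0.10 (limma adjusted p = 0.655), so neither of the nearest measured genes shared the sign of Col11a2. Whether CAST alleles carry sequence changes under this probe was not tested. The other matching genes of this chromosome, Lama1 and Adamts10, had no value on any array.

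Collagens that decorate fibrils or form other interstitial networks gave 0 of 7 past the threshold, 3 above and 4 below 0, with a median of -0.054. Besides Col14a1 and Col8a1 they lay close to 0 or had wide errors. Col6a1, a chain of the beaded collagen VI around cells, differed by -0.055 ± 0.077, and Col6a2, which joins it in the same trimer, by -0.054 ± 0.11. Col16a1 differed by 0.028 ± 0.10, Col6a6 by 0.24 ± 0.19 and Col19a1 by -0.22 ± 0.25.

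Basement membrane and anchoring chains numbered 13, with 0 past the threshold, 5 above and 8 below 0, and a median of -0.079. Col4a1 and Col4a2, whose products assemble into the common type IV collagen trimer, are neighbouring genes of chromosome 8. Col4a1 read 14.79 and 14.81 in B6.CAST-17 and 14.87 and 15.00 in C57BL/6J, a difference of -0.14 ± 0.082 without overlap. Col4a2 read 14.56 and 14.66 against 14.55 and 14.61, a difference of 0.026 ± 0.082 with overlap, and the difference between the genes was not tested. Col4a5 and Col4a6, a second adjoining pair on the X chromosome, differed by 0.11 ± 0.21 and 0.17 ± 0.11. Col4a4, a chain of another type IV trimer, differed by -0.079 ± 0.096. Col18a1, the source of the fragment endostatin, differed by -0.20 ± 0.10 and Col15a1, its relative, by -0.069 ± 0.12.

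Laminin chains differed in sign. Lamb3 was above both controls, as given before, whereas the beta chains of other basement membranes, Lamb1 (-0.10 ± 0.091) and Lamb2 (-0.16 ± 0.090), were below both controls. Lama4, an alpha chain of vessels and muscle, differed by 0.26 ± 0.20 with overlapping pools. Lamb3, Col17a1 and Col7a1 all belong to the complex that fixes stratified epithelium to its base. Col17a1, a transmembrane collagen of hemidesmosomes, read 12.10 and 12.14 in B6.CAST-17 and 12.80 and 12.17 in C57BL/6J, a difference of -0.36 ± 0.22 that became -0.045 without C57BL/6J pool 1. Col7a1, the collagen of anchoring fibrils, differed by -0.28 ± 0.24, and by -0.062 without C57BL/6J pool 1. The list of keratinised forestomach markers had 11 measured genes, with a median of 0.021. Of these, 0 passed by adjusted p in limma, and 3 were under 0.05 before adjustment, 1 higher and 2 lower, against 15.8% of all probes. Its summed level was 21.78 and 21.75 (log2 of the summed signal, pool 1 before pool 2) in B6.CAST-17 and 21.77 and 21.79 in C57BL/6J. Bright probes weigh most in such sums, here and below, so they describe mainly the brightest genes of a list. Trp63, a defining gene of that list, had no value on any array.

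**Figure D3:**
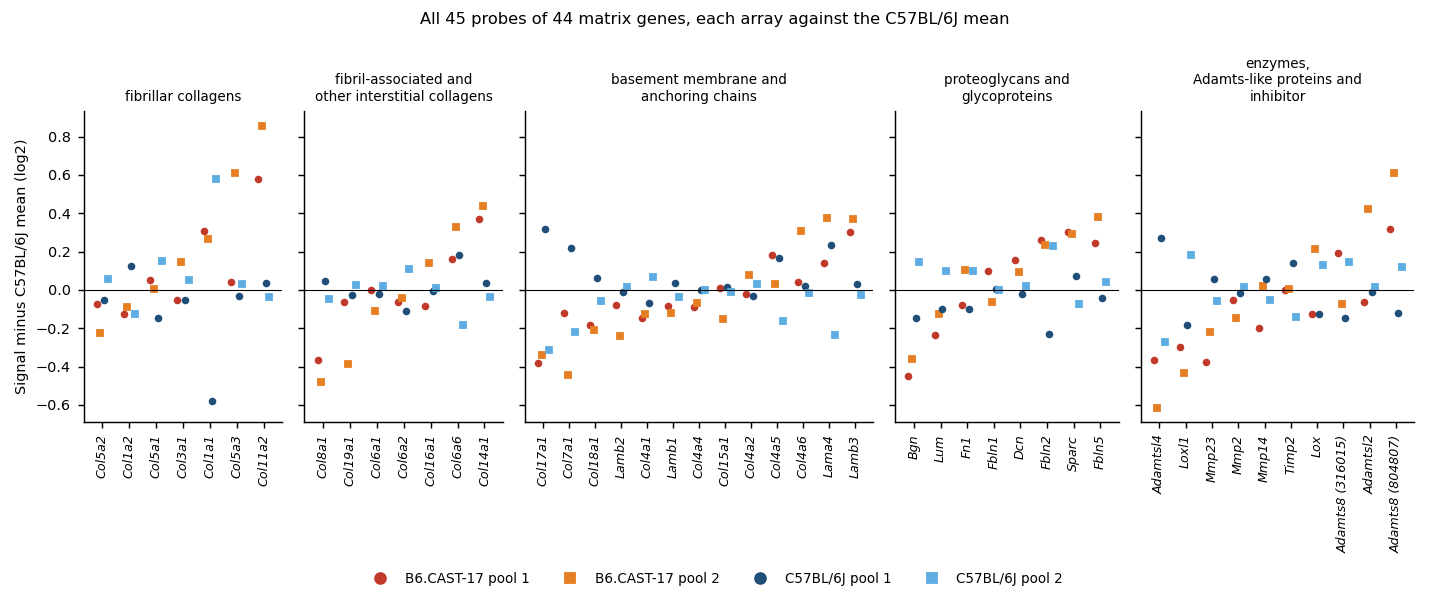
Signal of each of the 45 probes minus its C57BL/6J mean (log2, vertical axis), with genes along the horizontal axis in 5 groups by role and ordered by difference within each. Red and orange are B6.CAST-17 pools 1 and 2, dark and light blue C57BL/6J pools 1 and 2. The control pools of Col1a1 stand 1.16 apart, and both B6.CAST-17 pools of Col11a2 stand above both controls.

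Proteoglycans and glycoproteins gave 0 of 8 past the threshold, 6 above and 2 below 0, with a median of 0.071. Dcn, decorin, read 19.07 and 19.01 in B6.CAST-17 and 18.89 and 18.93 in C57BL/6J. The difference was small, 0.12 ± 0.076, although the pools did not overlap. Lum, lumican, differed by -0.18 ± 0.10 with all B6.CAST-17 values lower, so the 3 small proteoglycans Dcn, Lum and Bgn did not share a direction. Fn1, fibronectin, the adhesive protein that integrins bind, read 15.23 and 15.41 in B6.CAST-17 and 15.21 and 15.41 in C57BL/6J. Its difference of 0.013 ± 0.11 had an interval from -0.24 to 0.27, and the pools stood 0.18 apart in B6.CAST-17 and 0.20 apart in C57BL/6J. The fibulins, glycoproteins of elastic fibres and basement membranes, differed by 0.017 ± 0.10 (Fbln1), 0.25 ± 0.16 (Fbln2) and 0.31 ± 0.18 (Fbln5). Fbln2 read 13.49 in C57BL/6J pool 1 and 13.95 to 13.98 on the other arrays.

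Enzymes, Adamts-like proteins and the inhibitor Timp2 gave 0 of 10 probes past the threshold in limma and 0 with an unadjusted p under 0.05, 5 above and 5 below 0. Mmp2, a gelatinase, read 13.12 and 13.03 in B6.CAST-17 and 13.16 and 13.19 in C57BL/6J, a difference of -0.10 ± 0.098. Mmp14, the membrane protease that activates it, read 14.79 and 15.01 against 15.04 and 14.93, with overlapping pools and a difference of -0.089 ± 0.10. Timp2, which takes part in that activation and inhibits both, read 15.14 in both B6.CAST-17 pools and 15.28 and 15.00 in C57BL/6J, a difference of 0.0023 ± 0.11. The interval of each of these 3 lay between -0.34 and 0.27. Mmp23 differed by -0.30 ± 0.15.

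The cross-linking enzyme Lox differed by 0.044 ± 0.21, and its relative Loxl1, which acts on elastin, read 11.96 and 11.83 in B6.CAST-17 and 12.08 and 12.45 in C57BL/6J, a difference of -0.37 ± 0.17 (limma adjusted p = 0.351) that was -0.19 without C57BL/6J pool 2 and -0.55 without C57BL/6J pool 1. Adamtsl4, which lacks protease activity and binds microfibrils, had the lowest difference of all members, -0.49 ± 0.25, with 11.37 in C57BL/6J pool 1 and 10.83 in pool 2 against 10.73 and 10.48 in B6.CAST-17. It was -0.22 without C57BL/6J pool 1. Adamtsl2 differed by 0.18 ± 0.16. Adamts8, a protease, was the only member gene with more than 1 compared probe, and gave 0.46 ± 0.21 without overlap by probe 804807 and 0.058 ± 0.17 with overlap by probe 316015. The intervals of these differences overlapped, from -0.055 to 0.98 and from -0.37 to 0.48, and the difference between the probes was not tested.

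**Figure D4:**
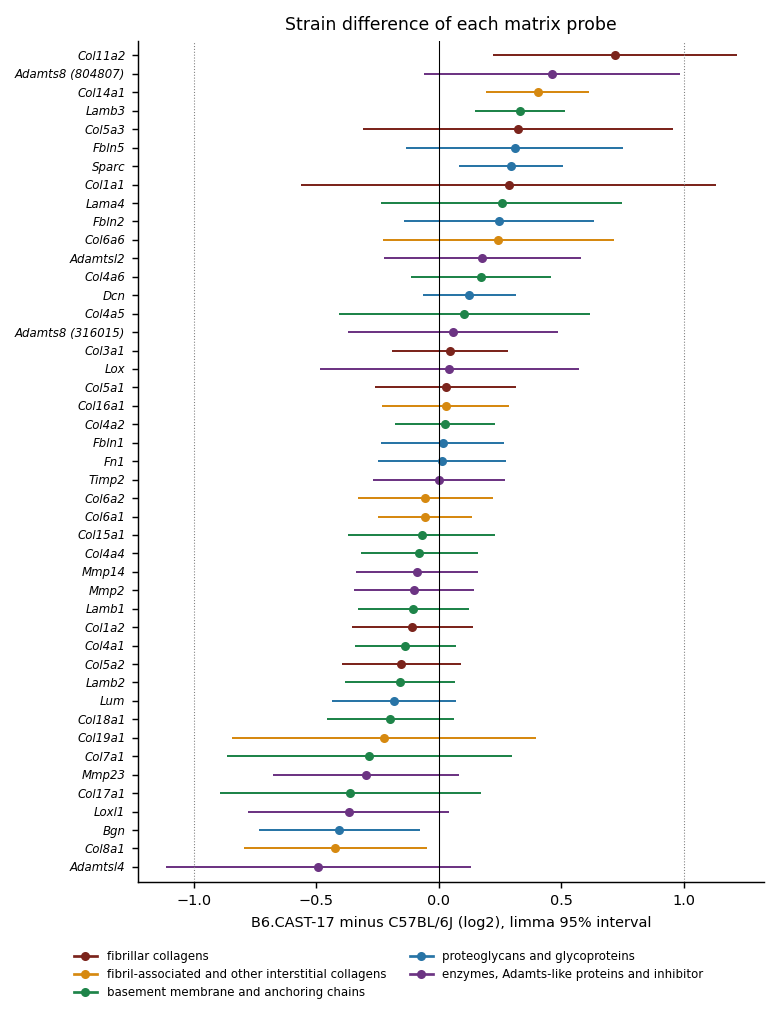
Difference B6.CAST-17 minus C57BL/6J (log2, horizontal axis) for each of the 45 probes, with the 95% interval from limma as a line and the role as colour. The dotted lines mark 1 log2 either side of 0. Intervals of 6 probes leave out 0 before any adjustment, and those of Adamtsl4, Col1a1 and Col11a2 reach past 1 log2.

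The matrix proteases were the part least covered by the arrays. Of 18 matching metalloproteinase probes, 3 had values on all arrays, 7 on some and 8 on none, and Mmp9, Mmp7 and Mmp12 were among the last, as were Adamts1 and Adamts4 among the Adamts proteases. Collagens were better covered, with 23 of 35 probes on all arrays, 5 on some and 7 on none, and all 8 probes of fibulins, decorin, biglycan, lumican, fibronectin and Sparc had every value. Timp3 lacked a value in B6.CAST-17 pool 1 and read 9.59 in pool 2, against 9.70 and 10.42 in C57BL/6J. Timp4 had a value in C57BL/6J pool 2 only. Mmp1b had values in both B6.CAST-17 pools, 9.52 and 9.33, and in neither control pool. Mmp10, a stromelysin, and Mmp13, a collagenase, lacked a value in C57BL/6J pool 2, as did Adamts5, Loxhd1, Col2a1 and Col26a1. Mmp11 (11.36 in B6.CAST-17 pool 2, 11.21 and 11.83 in C57BL/6J) lacked a value in B6.CAST-17 pool 1. A probe of Loxl2 lacked it in C57BL/6J pool 1 and read 10.19, 9.77 and 9.77 elsewhere. Col9a1 read 9.32 in B6.CAST-17 pool 1 and 9.05 in C57BL/6J pool 1 alone. Values on a single array were found for Adamts12, Adamts16, Mmp8 and a probe of Col23a1 in B6.CAST-17 pool 1, for Mmp3 in B6.CAST-17 pool 2, and for Mmp17 and Col4a3 in C57BL/6J pool 1. Over the 19 partly blank probes, the B6.CAST-17 pools held 13 and 11 values and the C57BL/6J pools 11 and 4. Over all 33012 probes the B6.CAST-17 arrays also held more values, 16954 and 16871 against 16320 and 16326. Blanks on an array of this kind are not read as absent transcripts, and the rule behind them is not given in the sources used here. Overall coverage of the matching probes, 49.5% on all arrays, was close to the 54.9% of all probes with 1 symbol.

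Genes that act with the matrix were taken from 7 further lists. Over all probes 15.8% had an unadjusted p under 0.05 in limma, and 0.475% passed. Of 7 measured integrins and collagen receptors, 0 passed, and the 2 with an unadjusted p under 0.05 were both lower: Itga7, a laminin receptor of muscle (-0.53 ± 0.14), and Ddr2, a receptor for fibrillar collagen (-0.35 ± 0.14). Their median was -0.092. Collagen processing enzymes and chaperones gave 0 of 15, with a median of -0.096, and P3h3, a prolyl hydroxylase family member, as the smallest p (-0.47 ± 0.16), followed by P4ha2, a catalytic chain of prolyl 4-hydroxylase (0.17 ± 0.080). Elastic fibre and microfibril genes gave 0 of 11 and a median of -0.061, with Ltbp3 (-0.19 ± 0.096) and Ltbp4 (-0.16 ± 0.086), which bind latent growth factor in the matrix, first by p. Other basement membrane genes gave 0 of 11 and a median of -0.12, led by the heparan sulfate proteoglycans Sdc1 (-0.27 ± 0.11) and Sdc3 (-0.25 ± 0.11). In that list Dst, a linker of hemidesmosomes, gave -0.011 ± 0.096 by the probe that was counted and -0.42 ± 0.090 by the other.

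The transforming growth factor beta pathway, a main inducer of collagen genes, gave 0 of 10 in limma and 0 with an unadjusted p under 0.05, and a median of -0.025. Its receptor gene Tgfbr2 differed by -0.41 ± 0.19 and its ligand gene Tgfb2 by 0.30 ± 0.17. Other proteases and inhibitors that act on matrix gave 0 of 13 and a median of -0.11, with the cathepsin Ctsl at -0.22 ± 0.078 and the sheddase Adam10 at -0.51 ± 0.20.

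Thbs2, the matricellular protein thrombospondin-2, was the only measured gene of these 7 lists that passed. It read 12.47 and 12.46 in B6.CAST-17 and 11.37 and 11.32 in C57BL/6J, so that it rose 2.17-fold without overlap (1.12 ± 0.13, limma adjusted p = 0.0332). Thbs2 is a gene of chromosome 17, number 22 of 379 in order, and the same question about its probe was not tested. The size was between 1.09 and 1.15 whichever pool was left out, but it did not pass in any of those fits (limma adjusted p between 0.0577 and 0.244), nor with the pool number as a block (0.128) or without the variance trend (0.0778). Of the 21 measured proteoglycans and matricellular genes in its list, the other 20 did not pass, the median was 0.017, and the next by p was Ecm1, at -0.21 ± 0.084.

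Markers of the cells that could carry these transcripts were set beside them. For the counts below, 7.12% of all probes were higher and 8.66% lower with an unadjusted p under 0.05 in limma. An adjusted p under 0.05 was reached by 0.475% of all probes. Of 16 fibroblast markers, 9 were measured. None passed the adjusted threshold in limma (0 of 9), and 2, both lower, had an unadjusted p under 0.05. The median of the 9 was -0.085, with 7 lower and 2 higher. Their summed level was 17.75 in both B6.CAST-17 pools and 17.78 and 17.84 in C57BL/6J, and the defining genes Pdgfra and Thy1 had no value on any array. The 11 measured smooth muscle markers gave 0 passed and 4 with an unadjusted p under 0.05, all lower. Their median was -0.075, with 8 lower and 3 higher, and their summed levels were 20.76 and 20.74 against 20.89 and 20.88. Endothelial and pericyte markers (9 measured, 0 passed in limma, 3 with an unadjusted p under 0.05, 2 of them higher, Tie1 blank throughout) had summed levels of 15.98 and 15.99 against 15.98 and 16.02. Their median was 0.098. Of the 2 higher, Notch3 (0.55 ± 0.10) is a gene of chromosome 17. Whether CAST alleles carry sequence changes under its probe was not tested. Macrophage markers (9 measured, 0 passed in limma and 0 with an unadjusted p under 0.05), adipose markers (5 measured, 0 passed, 2 with an unadjusted p under 0.05, both lower) and mesothelial markers (4 measured, 0 passed, 0 with an unadjusted p under 0.05) had medians of -0.024, 0.0054 and 0.19. Markers of tissues next to the stomach did differ. All 9 skeletal muscle markers were lower: 3 passed the adjusted threshold, and 8 were under 0.05 before adjustment. Of 12 exocrine pancreas markers 11 were higher and 1 was lower: 9 passed, and 11 were under 0.05 before adjustment, all higher. All 9 liver markers were higher: 2 passed, and 6 were under 0.05 before adjustment. Summed levels of these lists were 16.33 and 16.37 against 17.32 and 17.40 for skeletal muscle, 21.25 and 21.22 against 20.81 and 20.83 for pancreas, and 18.84 and 18.75 against 18.65 and 18.67 for liver. The median differences of these lists were -1.08, 1.82 and 0.37. Matrix transcripts occur in skeletal muscle, pancreas and liver too. Where these marker transcripts came from, and what part such tissue may have in the values above, was not tested. The stomach's own epithelial markers, 11 of 11 annotated, had values on all arrays and 0 passed in limma, with 3 at an unadjusted p under 0.05, all lower. Of these 11, 5 were higher and 5 lower in B6.CAST-17, with a median of 0.

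**Figure D5:**
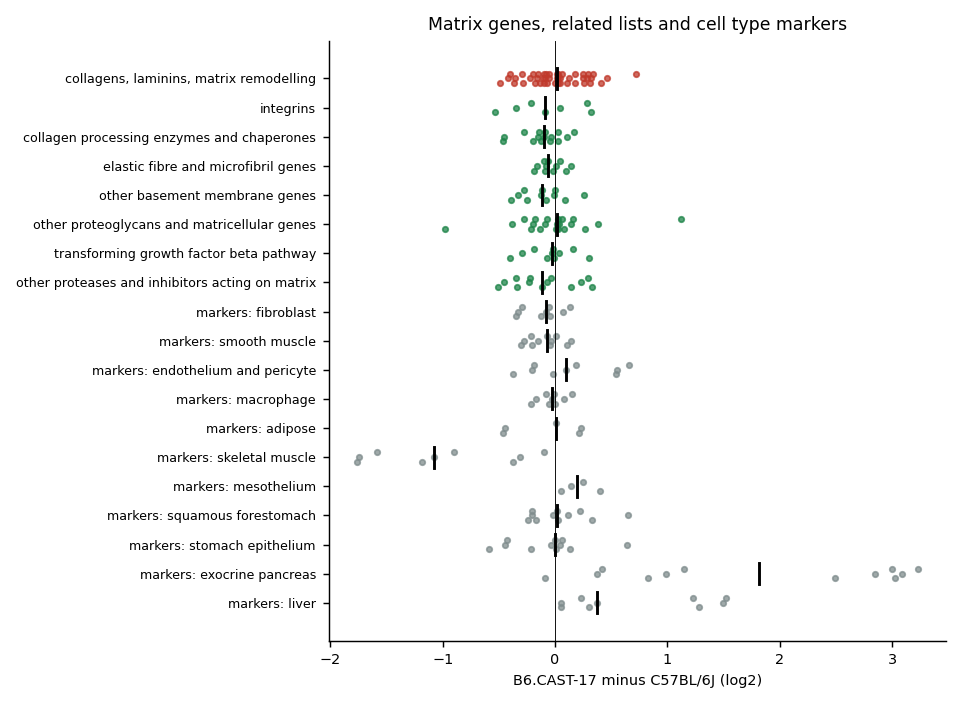
Difference B6.CAST-17 minus C57BL/6J (log2, horizontal axis) of every measured gene in the matrix set (red), in 7 lists of genes that act with the matrix (green) and in 11 marker lists (grey), with list medians as black bars. The matrix set and the green lists have medians between -0.12 and 0.017, with Thbs2 at 1.12, whereas the medians of skeletal muscle, exocrine pancreas and liver markers are -1.08, 1.82 and 0.37.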

How the data were processed

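Pooled stomach RNA (1 microgram per array) was labelled with digoxigenin, per the labels' protocols, and read on 4 single-colour arrays. The authors deposited 1 table of log2 signals, the base being inferred because the values span roughly what log2 array signals span. Their normalization is not given in the sources used here. Probes were named through GEO's platform annotation (of 33012 probes, 14411 had 1 symbol, 247 several and 18354 none). Chromosomes and gene order came from RefSeq, GRCm38.p6.

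The strain difference of each probe was fitted in limma 3.58.1 under R 4.3.3 (eBayes with the mean-variance trend, two-sided, 2 residual and 3.97 prior degrees of freedom). P-values were adjusted by Benjamini-Hochberg over all 13475 probes with 4 values, at a threshold of 0.05, with no further normalization. The script was tested on simulated data. The arrays' medians over these probes lay between 12.819 and 12.824. The number of arrays limits the precision. In lists, a gene with several probes is represented by the brightest.

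Members and lists were chosen with earlier results of these data known. Members were named if their unadjusted p was under 0.05, if they were among the 8 highest or 8 lowest differences, lay on chromosome 17, or were on a list of well-known matrix genes. Other members were named after their values were seen, to complete a role or to show blanks. In the 7 lists, genes that passed and up to 2 with the smallest p were named (Dst, Rxrb and Brd2 after their values were seen). For marker lists counts, medians and summed levels are given, and Notch3 was named after its values were seen. Alternatives were a block for the pool number, centring on array medians, quantile normalization, leaving out dim probes or single pools, other variance models, 1 blank allowed and an adjusted p of 0.1. Pool numbers were not taken to pair the samples. Figures were drawn with matplotlib 3.10.9.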

Additional observations from a re-analysis of the deposited data

How the results depend on the processing

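The count of member probes that passed was 0 in every alternative that kept all pools, and also at an adjusted p of 0.1. Whether Col1a1 passed depended on which control pool was kept, as given above. The number with an unadjusted p under 0.05 was 6 of 45, or 13.3%, against 15.8% of all probes in the same fit. With the pool number as a replicate block it was 5, against 13.1% of all probes, and the count that passed stayed 0. The correlation of same-numbered pools' deviations was -0.064, so the numbers gave no sign of pairing. Without the variance trend the number with an unadjusted p under 0.05 was 8 of 45, against 14.0% of all probes. With dim probes left out it was 4 of 28, against 19.7% of the probes kept. The median difference ranged from -0.056 to 0.015 without single pools. All 45 member probes were refitted under each alternative that retained them. No sign changed under the 7 alternatives that kept all pools, but for most of them this outcome was fixed. The block, the other variance models, leaving out dim probes and allowing 1 blank leave the fitted difference of a probe unchanged. Only centring on array medians and quantile normalization altered the differences. The array medians already lay between 12.819 and 12.824, and the highest value was 21.248 on all 4 arrays, so both are mild alternatives. The 25 probes whose pools did not overlap cannot change sign when a single pool is left out. Of the 20 whose pools overlapped, 16 did. Their ranges were -0.090 to 0.21 for Adamts8 (probe 316015), -0.065 to 0.42 for Adamtsl2, -0.15 to 0.012 for Col15a1, -0.084 to 0.14 for Col16a1, -0.29 to 0.87 for Col1a1, -0.23 to 0.019 for Col1a2, -0.051 to 0.14 for Col3a1, -0.024 to 0.076 for Col4a2, -0.060 to 0.27 for Col4a5, -0.12 to 0.18 for Col5a1, -0.16 to 0.057 for Col6a2, -0.064 to 0.099 for Fbln1, -0.087 to 0.11 for Fn1, -0.13 to 0.21 for Lox, -0.20 to 0.019 for Mmp14 and -0.14 to 0.14 for Timp2. The difference of 34 of the 45 moved by over 1.5 times, sign changes included, without some pool. Signal over background is unknown, which limits what blanks and dim probes show.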
